A study of Mus musculus with 2 samples.

Results

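Small RNAs of 24 to 37 nt that match annotated mouse pseudogenes, and no other annotated transcript, are described here in testes with and without Tdrkh. A gene was counted as a member when its GENCODE M21 type contained the word pseudogene and when sequences that matched no non-pseudogene transcript on either strand gave it at least 20 reads of 24 to 37 nt over both libraries. This held for 974 of 13523 annotated pseudogenes. The members were thus chosen by their summed read counts, so the number of members and their totals are a description; the comparison of the libraries was not used to choose them.

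The libraries were made from testes of Tdrkh-/- and Tdrkh+/- mice at 11 days after birth, 1 library per genotype, each from 5 pooled pairs of testes of a mixed C57Bl6/129 background. In these mice exons 2 to 4, with the start codon in exon 2, had been floxed and were removed by EIIa-Cre, a transgene bred out before use, and of the pair of knockout lines made the labels do not say which was sequenced. With 1 library per genotype, no difference below has a replicate check and no test was run, the control animals carry 1 deleted allele, and in whole testis fewer cells of a type cannot be told apart from less small RNA per cell.

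Pseudogenes are copies of genes that no longer encode the full protein. Processed ones were made by reverse transcription of a messenger RNA, usually by the machinery of the LINE-1 retrotransposon, and unprocessed ones by duplication of the gene. piRNAs are small RNAs bound by PIWI proteins in germ cells: primary piRNAs are cut from long single-stranded precursors and mostly begin with U, whereas in the ping-pong cycle a PIWI protein cuts an opposite-strand transcript so that both small RNAs overlap by their first 10 bases and the partner tends to carry A at position 10. Tdrkh, with its Tudor and KH domains, sits on the mitochondrial outer membrane, where it binds PIWI proteins, and it is known for the trimming of piRNA precursors at their 3′ ends. A transcribed pseudogene can give sense small RNAs of its own, and small RNAs antisense to it are complementary to the messenger RNA of its parent gene.

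The first sequences show the main pattern, small RNAs that began at the same base in both libraries and ended at different ones. They are printed 5′ to 3′ in DNA letters as the tables give them, with the first base in capitals, and each pair is the most abundant sequence of that start in Tdrkh+/- and then in Tdrkh-/-. They were chosen after the values had been seen, because they show the pattern clearly.
Gm18609 antisense, 28 nt: Tattctggagaattataagtggcctgcc
Gm18609 antisense, 37 nt: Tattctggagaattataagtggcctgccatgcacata
Gm12260 sense, 29 nt: Tgagatcgcccaggacttcaagaccgacc
Gm12260 sense, 34 nt: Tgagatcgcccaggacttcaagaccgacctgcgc
Gm48009 antisense, 27 nt: Tagccttgggaattctgaaatcttgaa
Gm48009 antisense, 36 nt: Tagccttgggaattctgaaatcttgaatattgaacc
The 28 nt form of Gm18609 was read 30 times in Tdrkh-/- and 269 times in Tdrkh+/-, and its 37 nt form had 589 and 21. For Gm12260 the 29 nt form had 292 and 856 reads and the 34 nt form 1328 and 281. For Gm48009 the 27 nt form had 23 and 205 reads and the 36 nt form 156 and 12. In each pair the shorter form had more reads in Tdrkh+/- and the longer form more in Tdrkh-/-. Not every start differed so: at the leading start of Olfr1372-ps1 the same 32 nt sequence was the most abundant in both libraries, with 487 and 489 reads, although reads from that start averaged 32.7 nt (Tdrkh-/-) against 29.9 nt (Tdrkh+/-). For 130 abundant members outside LINE-1 the leading start was taken, the start with most reads in the library where it had fewer. Its reads had a longer mean length in Tdrkh-/- in 115. The most abundant sequence was the same in both libraries in 43, longer in Tdrkh-/- in 68 and shorter in 19. Many of these members share a start, so these are not counts of separate observations. The same was not counted for other genes. Many copies of the ribosomal protein gene Rps2 share a start with 89 reads in Tdrkh-/- and 95 in Tdrkh+/-. Copies of Rpl30 share another, with 121 and 1155. Some leading starts had few reads, such as that of Gm47366 with 4 and 8.

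The second set shows opposite-strand partners from pseudogenes that are LINE-1 copies, with the 10 bases that pair with each other in capitals.
Gm47626 and Gm48082 sense, 34 nt: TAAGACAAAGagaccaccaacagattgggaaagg
Gm47626 and Gm48082 antisense, 29 nt: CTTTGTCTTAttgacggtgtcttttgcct
Gm49273, Gm17131 and Gm48111 sense, 37 nt: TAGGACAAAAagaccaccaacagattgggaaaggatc
Gm49273, Gm17131 and Gm48111 antisense, 29 nt: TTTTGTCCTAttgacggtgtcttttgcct
The first pair had 1571 and 177 reads in Tdrkh-/- and 92 and 46 in Tdrkh+/-. In the second pair the sense partner gave 129 Tdrkh-/- reads and 1 Tdrkh+/- read, and the antisense partner 1297 and 163.

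The third set holds single sequences that carry much of the difference of a member, with bases 1 and 10 in capitals.
Gm45105, Gm47325 and Gm49181, 31 nt: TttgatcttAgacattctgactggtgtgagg
Olfr1372-ps1 sense, 28 nt: TgcaacggaAtgttatttggatgcgcct
Olfr1372-ps1 sense, 36 nt: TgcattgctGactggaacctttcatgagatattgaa
Gm13815 sense, 29 nt: TcgagagtgTccttctgatgaatgtggtc
AC102610.1 and 10 other Rpl30 copies sense, 28 nt: TacaaacagActctgaagatgatcagac
Gm47103 antisense, 31 nt: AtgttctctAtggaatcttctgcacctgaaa
The first had 7360 reads in Tdrkh-/- and 220 in Tdrkh+/-. The Olfr1372-ps1 sequences had 1709 and 2662 reads at 28 nt, and 2935 and 7 at 36 nt. The Gm13815 sequence had 7 and 1469 reads, the Rpl30 sequence 17 and 637, and the Gm47103 sequence 1329 and 9.

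In all, 60973266 reads were listed for Tdrkh-/- and 43172204 for Tdrkh+/-, of which 47151791 and 37504077 were of 24 to 37 nt. Members took 270714 of these in Tdrkh-/- (0.574%) and 139386 in Tdrkh+/- (0.372%), in 40581 distinct sequences. Levels below are reads per microRNA read (2486303 and 2363475 microRNA reads), and ratios are Tdrkh-/- over Tdrkh+/-. Intervals are at 95% and hold counting error alone, because there is 1 library per genotype. The reads carry no molecular identifiers and several may come from 1 molecule, in which case the intervals are too narrow. The excised exons of Tdrkh had 0 reads in Tdrkh-/-, against a floor of 3 for a count of 0, and 17 in Tdrkh+/-, and the other exons had 1516 and 1184. Of 15 cell type microRNAs looked up, the germ cell markers Mir470 and Mir871 were the most abundant (7.45% and 4.78% of the Tdrkh-/- microRNA reads, 5.35% and 4.73% of those of Tdrkh+/-), while the germ cell markers Mir463 (880 and 1216 reads) and Mir743 (803 and 993) were lower in Tdrkh-/-. The Sertoli marker Mir202 had 790 and 668 reads. The smooth muscle marker Mir143 held 3.58% and 3.93%, while Mir145a, also of smooth muscle, had 456 and 333 reads and was higher in Tdrkh-/-. The erythroid marker Mir486 held 0.630% and 0.431%, and Mir451a had 20 and 23 reads. The leukocyte markers Mir142 and Mir223 had 51 and 66, and 5 and 4 reads. The liver marker Mir122 had at most 1 read. Of the muscle markers Mir206 had at most 1 read, Mir1a-1 had 1 and 6, and Mir133a-1 had 89 and 96.

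Members came unequally from the classes of pseudogene. Of 9940 processed pseudogenes 694 were members (6.98%), and of 2642 unprocessed ones 112 (4.24%), whereas of those annotated as transcribed 79 of 296 processed (26.7%) and 60 of 253 unprocessed (23.7%) passed. The other members were 10 of the plain type pseudogene, 8 polymorphic, 8 transcribed unitary and 3 unitary. A further 3281 pseudogenes had 1 to 19 reads, with 25 just outside the threshold at 19 and 28 just inside at 20. The median member had 67 reads, 139 members had at least 1000, and the 10 most abundant held 31.1% of all member reads. Because many pseudogenes are near copies, a sequence shared by several was counted in each of them in values per member and once in pooled values, and 594 members passed the 20 reads on sequences of a single pseudogene alone.

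By their sequence the members fell into 4 groups, defined after the reads had been seen. By open reading frames, a motif and alignments to each other, and with no repeat annotation used, 89 members were recognised as copies of LINE-1, a retrotransposon that encodes an RNA-binding protein (ORF1) and an endonuclease and reverse transcriptase (ORF2). Of these, 71 were at least 75% identical, over at least 50% of their length in either orientation, to a member with 1200 or more open codons and the reverse transcriptase's paired aspartates, and are called LINE-1 ORF2-like. Another 18 were likewise related to members that lay at most 100 nt upstream of an ORF2-like member on its strand, and are called LINE-1 ORF1-like. A coding parent, the protein-coding gene with the best same-strand alignment at the same limits of identity and length and at least 100 aligned coding bases, was found for 631 members, and the remaining 254 are called other. The LINE-1-like members, 89 of 974, held 149397 of the 270714 member reads in Tdrkh-/- and 21369 of the 139386 in Tdrkh+/-. Members outside LINE-1 are the 885 that did not meet these limits. Of them 3 held the motif, and smaller LINE-1 pieces were not searched for.

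In Tdrkh-/- the members outside LINE-1 gave about as many reads of 24 to 37 nt as in Tdrkh+/- but of a longer size, while the LINE-1-like members gave more reads in both size windows. Members outside LINE-1 had 122372 reads in Tdrkh-/- and 118119 in Tdrkh+/-, a log2 ratio per microRNA read of -0.02 (-0.03 to -0.01). At 24 to 30 nt, the size of mature piRNAs, they had 38181 and 97324 reads and a log2 ratio of -1.42 (-1.44 to -1.41). At 31 to 37 nt they had 84191 and 20795 reads and a log2 ratio of 1.94 (1.92 to 1.97), which is 3.85-fold higher. The 2 windows thus differed in opposite directions outside LINE-1.

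In LINE-1-like members the short reads numbered 50193 in Tdrkh-/- against 15642 in Tdrkh+/-, with a log2 ratio of 1.61 (1.58 to 1.63). At 31 to 37 nt they had 99204 and 5727 reads, 16.5-fold higher per microRNA read (log2 4.04, 4.00 to 4.08). The ORF2-like members were higher in both windows (log2 1.72 and 4.00), as were the ORF1-like ones (0.77 and 4.24). All members together, with 88312 and 112906 short and 182402 and 26480 long reads, had log2 ratios of -0.43 (-0.44 to -0.41) and 2.71 (2.69 to 2.73), a mixture of both kinds. The higher LINE-1-like level at 24 to 30 nt depended on sequences close to other transcripts: without those 1 substitution away from a non-pseudogene transcript, 832 and 756 reads were left and the log2 ratio was 0.07 (-0.08 to 0.21), while the 31 to 37 nt ratio was 3.75 from 3044 and 215 reads.

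**Figure D1:**
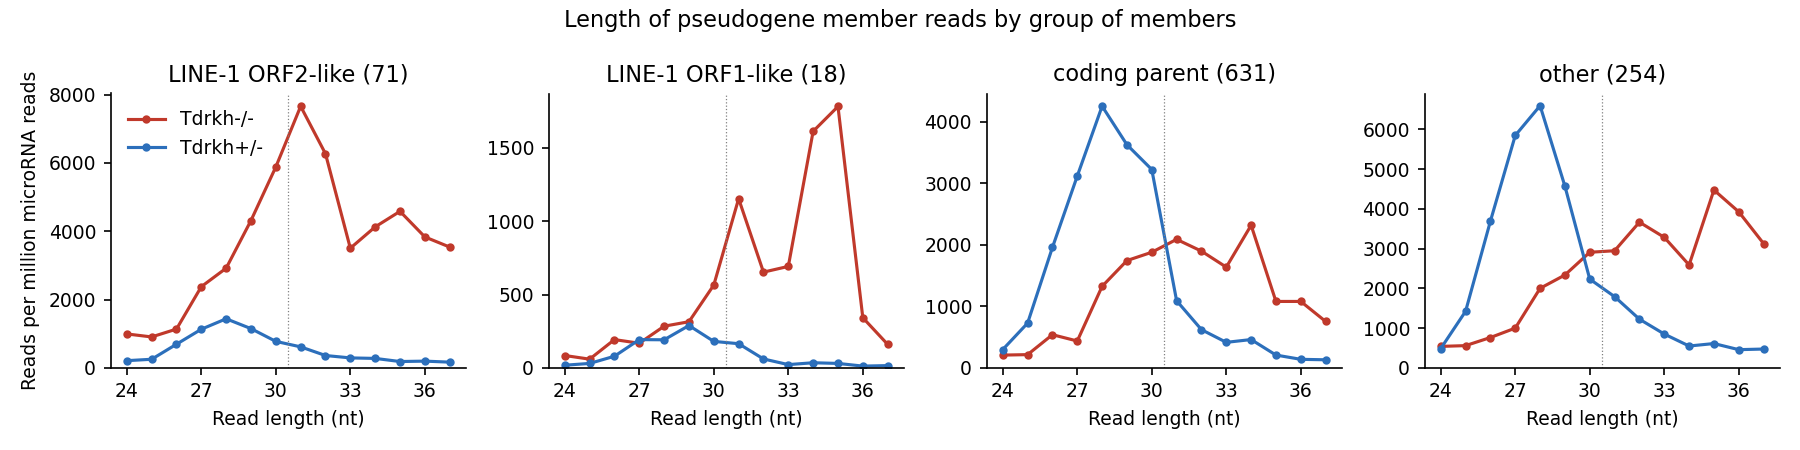
Reads of each length from 24 to 37 nt (x axis, nt) per 1000000 microRNA reads (y axis), for the 4 groups of members on separate scales, with 1 line per library. Outside LINE-1 the Tdrkh+/- line peaks at 28 nt and the Tdrkh-/- line at 34 and 35 nt, and in the LINE-1-like groups the Tdrkh-/- line is above the Tdrkh+/- line at most lengths.

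Member reads most often measured 31 nt in Tdrkh-/- and 28 nt in Tdrkh+/-, and their mean lengths were 31.9 and 28.7 nt. For members with a coding parent the modes were 34 and 28 nt, for the other members 35 and 28 nt, for the ORF1-like ones 35 and 29 nt and for the ORF2-like ones 31 and 28 nt. Long reads made up 67.4% of member reads in Tdrkh-/- and 19% in Tdrkh+/-. Of 220 members with at least 100 reads in each window, the share of long reads was higher in Tdrkh-/- in 216, with a median of 68.3% in Tdrkh-/-.

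Lengths were compared at starts, meaning sequences of member reads that share their first 24 bases and strand. Within a start, lengths can differ at the 3′ side alone. Of 463 starts with at least 20 reads in each library, 406 had a longer mean length in Tdrkh-/- (87.7%), by a median of 1.89 nt. Outside LINE-1 the difference was larger (287 of 321 starts, median 2.19 nt) than at LINE-1-like starts (118 of 141, 1.08 nt). Starts of other genes were not counted for comparison. The Gm18609 start printed above had 710 reads of mean length 35.8 nt in Tdrkh-/- and 612 of 28.8 nt in Tdrkh+/-. Of all long member reads in Tdrkh-/-, 82.2% began with the 24 bases of a short member sequence of Tdrkh+/-, against a median of 50.6% for starts moved by 1 to 10 nt. For the long reads of Tdrkh+/- and its own short sequences these shares were 79.8% and 51.4%.

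Member by member, a smaller share was lower at 24 to 30 nt than among all annotated genes in these libraries, and the LINE-1 copies differed from the rest. Of all genes with at least 100 such reads, 66.2% were at least 2-fold lower in Tdrkh-/- and 5.12% at least 2-fold higher. Of 303 members at the same minimum, 135 were lower (44.6%) and 59 higher (19.5%), with a median log2 ratio of -0.81 beside -1.41 for all genes. Among 69 LINE-1-like members 46 were higher and 1 lower (median 1.38), and among 234 others 134 were lower (57.3%) and 13 higher (median -1.33), so that the latter were closer to all genes.

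At 31 to 37 nt, Tdrkh-/- was above Tdrkh+/- by 2-fold or more in 74.7% of all genes and below it by 2-fold or more in 1.27%. Of 258 members 227 were higher (88.0%) and 13 lower (5.04%), with a median log2 ratio of 2.91 beside 1.62 for all genes. All 71 LINE-1-like members measured were higher (median 3.85), as were 156 of the 187 others (83.4%, median 2.10). The 13 lower members all had a coding parent, which was Rpl30 in 11 of them. Many members share sequences, so these counts are not counts of independent loci. The minimum of 100 reads sums both libraries, for members and all genes alike. A member can pass it through Tdrkh-/- alone, as H2-Q3 did with 187 and 3 reads, so these shares also depend on the minimum.

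**Figure D2:**
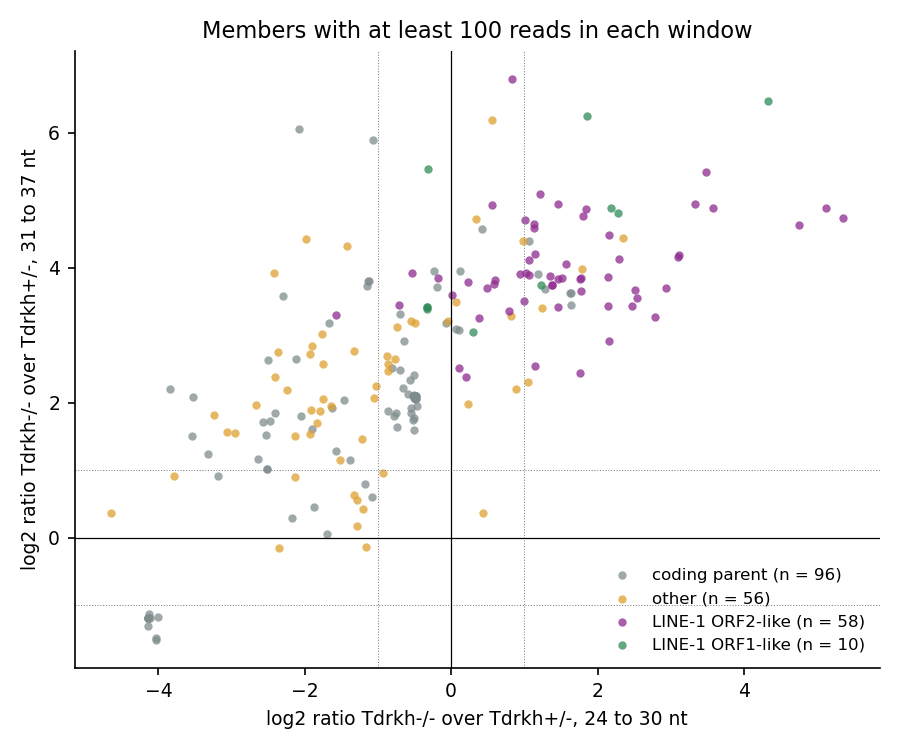
Each point is 1 of 220 members with at least 100 reads in both windows, with its log2 ratio at 24 to 30 nt (x axis) and 31 to 37 nt (y axis), coloured by group; dotted lines mark 2-fold. The LINE-1-like members lie mostly in the upper right, the others mostly in the upper left, and the members at least 2-fold lower in both windows are 11 Rpl30 copies.

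By direction alone, whatever its size, 125 of those 220 members were lower at the short and higher at the long size, 82 higher at both and 13 lower at both. None was higher at the short and lower at the long size. Of all genes with the same minimum, 84.5%, 10.4%, 4.89% and 0.198% were in these classes. Among LINE-1-like members 60 of 68 were higher at both sizes (88.2%), above the share of all genes. Among the others 117 of 152 (77%) were lower at the short and higher at the long one, near the share of all genes. By 2-fold differences 53 of the 220 members were lower at the short and higher at the long size, 56 higher at both and 11 lower at both, beside 46.6%, 4.35% and 1.21% of all genes.

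Among the members outside LINE-1, Olfr1372-ps1 had the most reads, and it is annotated as a transcribed olfactory receptor pseudogene on chr11:52154722-52168159, minus strand, inside the annotated gene Gm26551. In Tdrkh-/- it gave 5556 short reads, beside 9589 in Tdrkh+/- (log2 -0.86), and its long reads numbered 14955 and 2395 (log2 2.57). Of its reads 2.12% were antisense, and 88.0% in Tdrkh-/- and 83.8% in Tdrkh+/- began with U. The 28 nt sequence printed above lay at bases 6126 to 6153 of its longest transcript and the 36 nt one at bases 6726 to 6761.

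Gm18609, a processed pseudogene on chr6:128185277-128188877 (plus strand), had 1426 and 11346 short reads (log2 -3.07) and 6791 and 2183 long reads (log2 1.56). All of them were antisense to it, 92.9% began with U in Tdrkh-/- and 91.2% in Tdrkh+/-, and it lies in no other annotated gene. Gm48009 on chr13:49890423-49892868 (minus strand) was also read on the antisense strand alone, with 1378 and 4999 short reads (log2 -1.93) and 4301 and 621 long ones (log2 2.72). Both had no coding parent by the limits used.

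Gm12260 is a copy of a histone H3 gene with Hist1h3h as its closest coding parent, on chr11:58961812-58962222 (plus strand), inside Trim17 on the same strand. It had 1438 and 8120 short reads (log2 -2.57, -2.65 to -2.49) and 6369 and 1848 long reads (log2 1.71, 1.64 to 1.79), all sense. Fewer of them began with U in Tdrkh-/- (41.0%) than in Tdrkh+/- (66.4%). Sense reads of Hist1h3h itself were 1524 and 14974 at the short and 10449 and 3024 at the long size, log2 ratios of -3.37 and 1.72, counting sequences that other histone H3 genes hold as well.

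The lowest ratios at 24 to 30 nt came from members that were close to absent in Tdrkh-/- and so passed the read minimum through Tdrkh+/-. Gm13815, a copy of the ribosomal protein gene Rps27a on chr2:92561269-92561680, had 10 reads in Tdrkh-/- and 1723 in Tdrkh+/- (log2 -7.50), with 0 and 37 long reads. A single sequence, printed above, made up 83.4% of its reads. Sense reads of Rps27a itself were 439 and 5203 at the short size (log2 -3.64). CT025671.2, a copy of Pphln1 on chr17:66227249-66228027, had 4 and 576 short reads (log2 -7.24), all antisense, and 0 and 38 long ones. Gm13302 on chr4:41893388-41895236 had 1 and 225 short reads and 5 and 93 long ones, all antisense as well, and Gm48451 on chr10:86573044-86574247 had 2 and 277. Gm13492 on chr2:51817905-51818569, with 1 and 292 short reads, had the lowest ratio (log2 -8.26). Only 0.676% of its Tdrkh+/- reads began with U. In these 5 members the long reads were lower in Tdrkh-/- too or under 10 in both libraries.

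The 11 Rpl30 copies lower at both sizes hold nearly the same sequences, so they are not separate observations. Rpl30 encodes a protein of the large ribosomal subunit. AC102610.1 on chr19:58489282-58489603 had 65 and 1009 short reads (log2 -4.03) and 59 and 160 long reads (log2 -1.51). Every read of it was 1 substitution from another transcript. The sense reads of Rpl30 itself were 447 and 2118 short (log2 -2.32) and 501 and 469 long (log2 0.02), so the parent's long reads were not lower.

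Gm6472, a copy of the ribosomal protein gene Rps7 on chrX:152909505-152910155, and Gm9466, a copy of the RNA helicase gene Ddx21 on chr10:85785298-85792048, had the lowest ratios at 31 to 37 nt besides, among members with at least 100 such reads. Gm6472 had 96 and 304 long reads (log2 -1.74) and Gm9466 had 12 and 90 (log2 -2.98). Of the Gm9466 reads, 77 in Tdrkh+/- came from 1 sequence with 0 reads in Tdrkh-/-.

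The highest ratios at 24 to 30 nt belonged to 3 short LINE-1 ORF2-like pseudogenes that share 1 set of sequences. Gm47325 (chr10:100651630-100651942) had 10166 and 236 short reads and 11241 and 402 long reads, log2 ratios of 5.36 and 4.73. Gm45105 (chr7:131493507-131493903, inside Fgfr2) had 10396 and 368 short reads (log2 4.75), and Gm49181 (chr14:45113704-45114112) 10176 and 278 (log2 5.12). The reads were 99.8% antisense to Gm47325 as annotated and under 1% antisense to the other pair. Sequences 1 substitution from the 31 nt sequence printed above reached 29291 reads in Tdrkh-/- and 820 in Tdrkh+/-, so these pseudogenes hold 1 variant of a more abundant family.

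Of the near full-length ORF2-like members, Gm49273 (chr15:103657839-103661681, 1281 open codons) had 4846 and 3065 short reads (log2 0.59) and 8798 and 620 long reads (log2 3.75). Gm17131 (chr5:127878531-127882376) and Gm48111 (chr13:65404296-65408136), which share most of those sequences, had log2 ratios of 0.61 and 0.50 at the short and 3.82 and 3.70 at the long size. Gm47331 (chr10:47941841-47945427), with more sequences of its own, had 2771 and 1204 short and 12537 and 496 long reads (log2 1.13 and 4.59). One 32 nt sequence of it was read 3422 times in Tdrkh-/- and 23 times in Tdrkh+/-.

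The highest ratios at 31 to 37 nt were those of Gm48415, with 1523 reads in Tdrkh-/- and 13 in Tdrkh+/- (log2 6.80), of the ORF1-like Gm47103, with 1680 and 18 (log2 6.47), and of the ORF1-like Gm47933, with 2327 and 29 (log2 6.25). Their short reads were less far apart in Gm48415 (403 and 216, log2 0.83) and Gm47933 (574 and 151, log2 1.85) than in Gm47103 (467 and 22, log2 4.33). The most abundant sequence of Gm47933, with 780 and 3 reads, was 1 substitution from sequences with 141550 and 258 reads. That of Gm47103, with 1329 and 9 reads, was 1 substitution from sequences with 73703 and 250 reads. For Gm47356, an ORF2-like copy on chr10:48678011-48681857, the short reads were 776 and 62 (log2 3.57) and the long ones 835 and 27 (log2 4.88). A 31 nt sequence of it, with 168 and 0 reads, was 1 substitution from sequences with 357998 and 437 reads.

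Nearly every LINE-1-like read was close to another transcript. Whether such reads came from the named pseudogenes, or were sequencing errors or strain variants of other reads, was not tested. In the median ORF2-like member 99.5% of reads were 1 substitution from a non-pseudogene transcript, against 72.8% for members with a coding parent and 0% for the other members. Of LINE-1-like reads, 44.9% in Tdrkh-/- and 26.6% in Tdrkh+/- had a neighbour at 1 substitution that was at least 10 times as abundant, and 17.5% and 7.73% one at least 100 times as abundant. Outside LINE-1 these shares were 3.23% and 2.07%, and 0.711% and 0.392%. Those shares count each library by its own abundances. Without every sequence that has a neighbour at least 10 times as abundant in either library, 25350 and 8944 short and 48151 and 2904 long reads were left, and the LINE-1-like log2 ratios were 1.43 at 24 to 30 nt and 3.98 at 31 to 37 nt.

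Most members were read on 1 strand, and outside LINE-1 it was mainly the sense strand. At most 10% of reads were antisense in 572 members, at least 90% in 171, and 231 lay between. Of 631 members with a coding parent 424 were mostly sense, 101 mostly antisense and 106 mixed, and of the 254 others 133, 62 and 59. Of 71 ORF2-like members 56 were mixed.

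**Figure D3:**
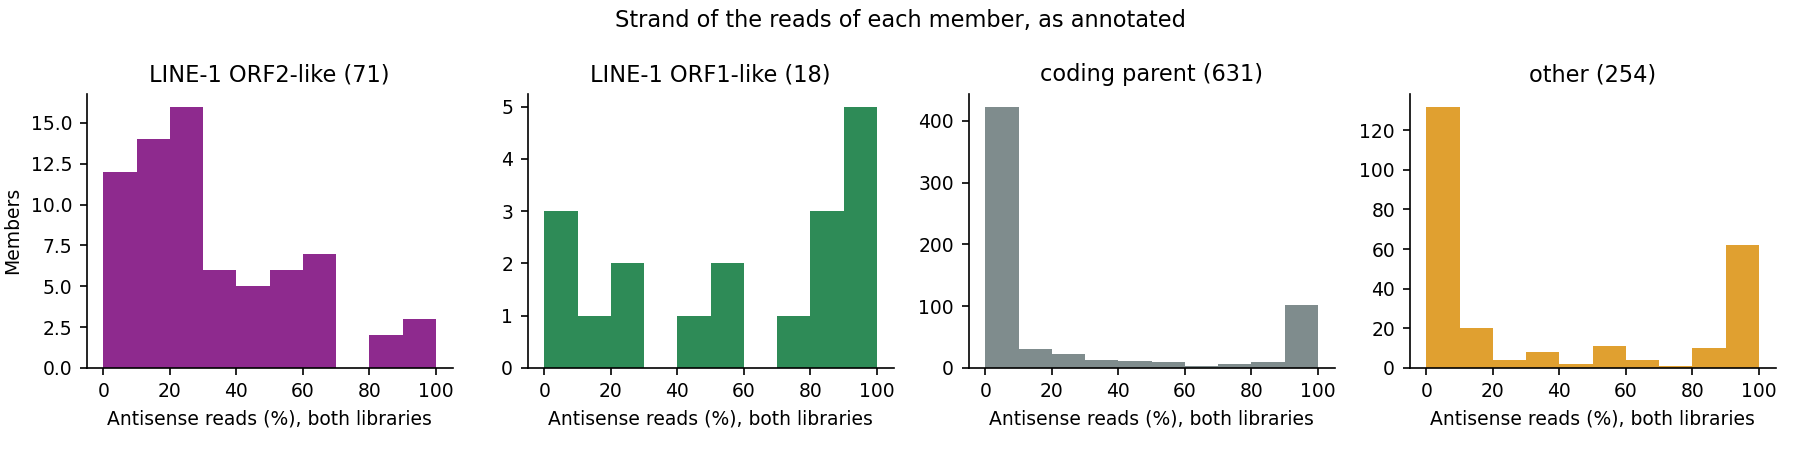
Number of members (y axis) by the share of their 24 to 37 nt reads that were antisense to the annotated pseudogene (x axis, %, both libraries summed), for the 4 groups. Members with a coding parent and other members pile up at both ends, more of them at the sense end, while the ORF2-like members spread between.

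Outside LINE-1 the antisense share was lower in Tdrkh-/- (26% of reads) than in Tdrkh+/- (38.3%). The short antisense reads were lower by more than the short sense reads, with log2 ratios of -2.36 (7718 and 37735 reads) and -1.03 (30329 and 59064). At 31 to 37 nt the antisense reads had a log2 ratio of 1.60 and the sense reads one of 2.11. For members with a coding parent the antisense share was 16.9% and 23.5%, and for the others 29.1% and 47.0%. A large part of the antisense reads of the others (24674 and 34201) came from Gm18609 and Gm48009, which were read on that strand alone. Relative to the LINE-1 coding strand, ORF2-like reads were antisense in 41.2% and 36.9%. That order rested on the trio of Gm45105, Gm47325 and Gm49181, without which the shares were 30.7% and 34.6%.

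Antisense reads can come from a gene on the opposite strand. Of the 163 members outside LINE-1 that were at least 90% antisense, 42 lay within a gene of the opposite strand (25.8%) and 14 within one of the same strand. Of the 557 that were at most 10% antisense, 76 lay within a gene of the opposite strand (13.6%) and 57 within one of the same strand. The reads counted lie outside the annotated exons of those genes, since sequences matching another transcript had been removed.

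Members outside LINE-1 carried the first-base bias of primary piRNAs in both libraries. Their reads began with U in 79.9% (Tdrkh-/-) and 81.3% (Tdrkh+/-), whereas the median share of U at positions 2 to 20 was 24.1% and 24.5%. All listed reads of 24 to 37 nt began with U in 74.3% and 81.2%. Long reads outside LINE-1 began with U in 78.3% and 70.6%, and short ones in 83.2% and 83.6%. ORF2-like reads began with U in 70.8% and 70.9%, and more often when antisense to LINE-1 (85.0% and 83.2%) than when sense (60.9% and 63.7%).

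A at position 10 was measured in reads that do not begin with U, where ping-pong partners would be found. In ORF2-like members it was present in 85.8% of such reads in Tdrkh-/- and 66.2% in Tdrkh+/-, while the median over other positions was 29.6% and 29.5% and the highest other position reached 60.3% and 53.0%. The share was higher in reads sense to LINE-1 (88.7% and 69.8%) than in antisense ones (74.8% and 52.8%). ORF1-like members had 83.2% and 59.9%, but position 15 had 83.5% and 80.0%, so position 10 did not stand out there. Without sequences 1 substitution from another transcript the ORF2-like shares were 82.0% of 932 reads and 51.4% of 146. Over all members the share was 67.8% and 39.8%, and without such sequences 30.8% and 28.8%. Among all listed reads of 24 to 37 nt it was 60.4% and 40.8%, so a higher share in Tdrkh-/- was not particular to members.

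Members with a coding parent had A at position 10 in 19.4% and 22.7% of such reads, close to a median of 21.3% and 23.7% over the other positions. Both shares were below those of all listed reads. In the other members, with all lengths pooled, position 10 was the highest in both libraries (45.2% and 39.0%). The median was 28.3% and 26.4%, and the highest other position had 41.5% in Tdrkh-/- and 37.1% in Tdrkh+/-. By window it stayed highest in Tdrkh-/- (36.5% short, 48.7% long) but not in Tdrkh+/-. There it had 38.1% beside 40.2% at position 2 in short reads, and 41.5% beside 53.4% at position 15 in long ones.

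**Figure D4:**
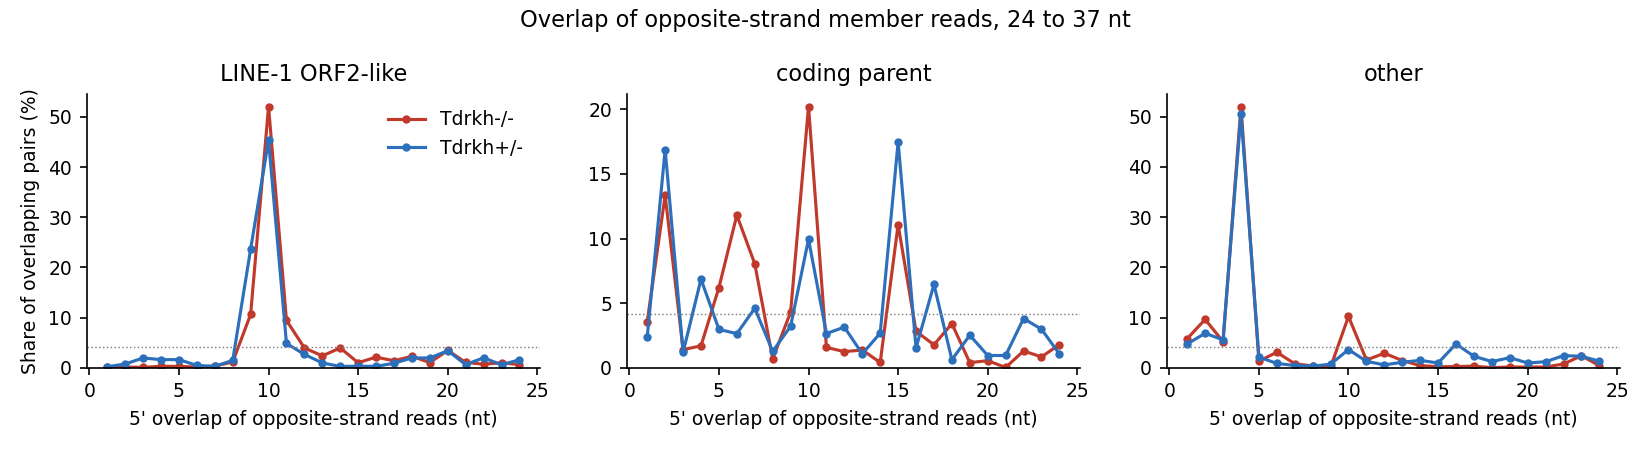
Share of overlapping opposite-strand read pairs (y axis, %) by the length of the overlap of their 5′ ends (x axis, nt) in each library, for reads of 24 to 37 nt in 3 groups of members on separate scales; the dotted line is an even share over 24 lengths. The ORF2-like members peak at 10 nt in both libraries, where many of the pairs come from Gm49273 and other members that share its sequences. The peaks of the others rest on a few pseudogenes.

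The overlaps of opposite-strand reads differed between the groups of members. In ORF2-like members 52.1% of overlapping pairs in Tdrkh-/- and 45.3% in Tdrkh+/- overlapped by 10 nt, where an even share over 1 to 24 nt would be 4.17%. The 10 nt share was above even in 46 of 62 ORF2-like members with pairs in Tdrkh-/- and in 23 of 61 in Tdrkh+/-. Gm49273 alone gave 13.6% and 22.0% of the ORF2-like pairs, and Gm17131 and Gm48111, which share its printed sequences, gave nearly as many. Gm47626 and Gm48082 share another printed pair, and 79.3% and 78.5% of their Tdrkh-/- pairs overlapped by 10 nt. The ORF2-like peak thus leans on a few sets of shared sequences. In ORF1-like members the 10 nt share was 13.8% and 17.6%, with more pairs at 19 and 18 nt, and over 99% of pairs were those of Gm17132. Over all members the 10 nt share was 27.7% and 12.2%, and without sequences 1 substitution from another transcript 2.40% and 1.53%, below even.

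Members with a coding parent had 20.2% and 9.94% of pairs at 10 nt, but 54.3% of all pairs in Tdrkh-/- were those of Gm13988, and the share was above even in 5 of 31 members and 12 of 55. In the other members it was 10.2% and 3.64%, and Gm9864 (chr2:107595630-107600539) alone gave 79.5% and 64.3% of the pairs, with a peak at 4 nt. In the short reads of the other members alone, 10 nt was the most frequent overlap in Tdrkh-/- (36.8%), where A330044P14Rik gave 61.6% of the pairs. In Tdrkh+/- it held 10.2%, with a mode of 16 nt and 79.7% of pairs from Olfr1372-ps1. A 10 nt pair of A330044P14Rik had the same 10 paired bases as one of the ORF2-like Gm43540. Whether A330044P14Rik holds LINE-1 sequence was not tested. Gm13988, Gm9864, Gm17132 and A330044P14Rik are named because they dominated these sums, after their values had been seen.

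The 631 members with a coding parent descended from 276 genes, led by 49 copies of Rps2, a protein of the small ribosomal subunit. The median alignment was 93.0% identical. Of the parents 254 had at least 20 sense reads of 24 to 37 nt themselves, and 233 had more sense reads than their most abundant pseudogene had reads in all. Of the parents 34 were over 10% antisense. Pseudogene reads with at most 1 difference to the aligned parent were 27.0% in Tdrkh-/- and 40.8% in Tdrkh+/-, those with 2 to 3 differences 39.8% and 28.3%, and those with 4 or more 24.7% and 22.4%.

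**Figure D5:**
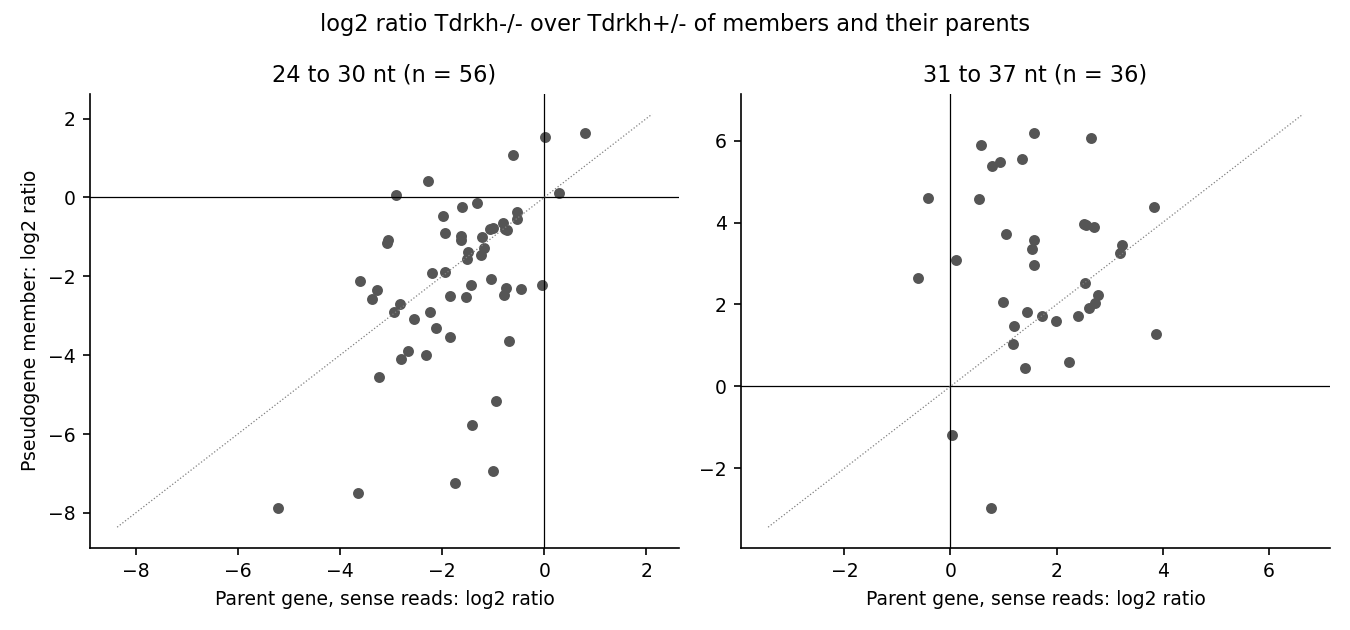
Log2 ratio of Tdrkh-/- to Tdrkh+/- of a parent's own sense reads (x axis) and of its most abundant pseudogene (y axis), for parents where both have at least 100 reads of the window; the dotted line marks equal ratios. At 24 to 30 nt 53 of 56 pairs have the same sign, and at 31 to 37 nt most pseudogenes lie above the line.

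Parents and pseudogenes mostly differed between the libraries in the direction that most genes did. By direction alone 88.8% of all genes were lower and 11.2% higher at 24 to 30 nt, and 5.05% were lower and 95% higher at 31 to 37 nt, so a shared sign does not tie a pseudogene to its parent. At 24 to 30 nt, 56 parents and their most abundant pseudogene both had at least 100 reads, 53 pairs had the same sign, and the median log2 ratios were -1.57 for the parents and -1.99 for the pseudogenes. At 31 to 37 nt, 32 of 36 pairs had the same sign, with medians of 1.58 and 3.03. Pearson's r across these pairs was 0.48 at the short size (Spearman's rho 0.44) and 0.03 at the long size (rho -0.04). This is a description across genes that share both libraries and their scaling.

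By the parent's function, ribosomal proteins gave the most members, 184 from 40 parents. Pooled, they had 1466 and 5947 short reads (log2 -2.09) and 3659 and 1398 long reads (log2 1.31). Gm13815 gave 1723 of the 5947 short Tdrkh+/- reads, and without it the short log2 ratio was -1.61. At 24 to 30 nt 19 of 57 were at least 2-fold lower and 0 higher, with a median log2 ratio of -0.52, beside 66.2% of all genes lower. At 31 to 37 nt 42 of 54 were higher and 12 lower (median 2.10), beside 74.7% of all genes higher. The Rpl30 copies lower at both sizes are among the lower members, and many of the 49 Rps2 copies share sequences too. These are thus not counts of separate observations. Without the Rpl30 copies the pooled log2 ratios were -1.87 and 1.47. Rps2-ps6 (chr14:76236691-76237545) had 299 and 395 short reads (log2 -0.47) and 778 and 178 long ones (log2 2.05), and it shares its reads with many of the Rps2 copies.

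The 8 histone copies had pooled log2 ratios of -2.56 and 1.70, with 3 of 3 measured members lower at the short size, beside 66.2% of all genes. The pooled ratios were mainly those of Gm12260: without it 110 and 547 short reads (log2 -2.39) and 76 and 42 long reads (log2 0.78, 0.22 to 1.36) were left. Besides Gm12260, Gm12957 (chr4:119520990-119521366), a copy of the histone H2B gene Hist1h2bq, had 24 and 389 short reads (log2 -4.09) and 4 and 25 long ones. Copies of glycolysis genes, 36 members from 5 parents, had -2.22 and 1.39, and none reached 100 reads in a window. Gm6981, a copy of the glycolytic enzyme gene Gapdh, had 17 and 54 short and 38 and 10 long reads.

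Copies of zinc finger and KRAB genes, which encode DNA-binding repressors, numbered 30 from 14 parents. They had pooled log2 ratios of -1.03 and 3.21. At the short size 2 of 13 were at least 2-fold lower and 3 of 13 higher, beside 66.2% and 5.12% of all genes. Gm14387 (chr2:175086501-175089918), a copy of Zfp966, had 138 and 230 short reads and 63 and 8 long ones. Of its short reads 114 and 202 came from 1 sequence of 28 nt held by 6 pseudogenes, so the members that hold it are not separate observations. The copies of chemoreceptors (10 members) had -1.55 and 2.85, and led by Vmn2r-ps102 they had no member with 100 reads in a window.

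The smaller lists followed the same exchange. Copies of mitochondrial ribosomal and respiratory chain genes (10 members) had pooled log2 ratios of -0.97 and 2.04, and of these 1700028B04Rik, a copy of the complex I gene Ndufb8, had 107 and 97 short reads and 108 and 12 long ones. Copies of translation factors (15) had -1.34 and 1.89, led by Gm8276, a copy of the poly(A)-binding protein gene Pabpc1 with 57 and 64 short and 196 and 12 long reads. Copies of RNA-binding and splicing genes (15) had -1.67 and 0.85, of cytoskeleton genes (8) -1.59 and 2.71, and of chaperone and proteasome genes (8) -2.11 and 1.77. In each of these 5 lists the short reads were lower and the long reads higher in Tdrkh-/-. Of all genes with at least 100 reads in each window, 84.5% did the same.

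Some lists held a single copy. Gm3433 (chr8:37103866-37106827), the only copy of a gene on the germ cell list (Tex24), had 0 and 68 short reads and 5 and 37 long ones, all antisense. It reached 100 reads in neither window. H2-Q3 (chr17:35358989-35359972), the only one of a major histocompatibility gene, had 46 and 92 short reads (log2 -1.07) and 187 and 3 long ones (log2 5.89). Its directions were those of most genes.

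Antisense pseudogene reads and sense reads of the parent, laid on the parent's sequence, had no clear excess at a 10 nt overlap over all reads. The 10 nt share was 2.94% in Tdrkh-/- and 5.40% in Tdrkh+/-, beside an even share of 4.17%, and the most frequent overlap was 2 nt in both (12.9% and 9.44%). It was above even in 24 of 95 members with such pairs in Tdrkh-/- and in 40 of 181 in Tdrkh+/-. With sequences of a single pseudogene alone it was 10.1% and 7.47%, and without those close to other transcripts 9.83% and 5.11%, above even in both libraries. Both settings turned the order of the libraries round, so no order is given.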

How the data were processed

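Per the labels' protocols, RNA of 15 to 40 nt was cut from a gel, 5 pairs of testes going into each genotype, and made into libraries with Illumina's small RNA kit for the Genome Analyzer II. The deposited tables, 1 per library, give the raw read count of each distinct sequence, at lengths of 18 to 40 nt. Bowtie and the build mm9 are named in the submitters' processing notes; their versions and any trimming were not given in the sources used here. Reads listed numbered 60973266 in Tdrkh-/- and 43172204 in Tdrkh+/-.

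GENCODE M21 transcripts and their reverse complements were searched for exact copies of each sequence (coordinates are GRCm38) in Python 3.11.15 with NumPy 2.4.6, pandas 2.3.3, SciPy 1.17.1 and Numba 0.67.0. No genome was used, so introns and unannotated copies were not analysed here. The matcher was checked against a plain search on 100 sequences, with 0 disagreements. Pseudogenes were aligned to each other and to coding genes with blastn 2.17.0. Figures were drawn with Matplotlib 3.10.9. MicroRNA reads are those of 18 to 25 nt sense to a microRNA hairpin. Ratios carry exact conditional binomial intervals and shares Wilson intervals, and a count of 0 was set to 3 for a ratio. Calls are 2-fold differences at a minimum of 100 reads; all genes were counted with sequences of up to 20 genes. Overlaps were weighed by the product of counts on 1 transcript per gene, each count divided by the number of members that hold the sequence. On simulated Poisson counts 95.8% of the intervals of 313 members at 24 to 30 nt and 93.3% of those of 269 members at 31 to 37 nt held the true ratio.

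The members, the groups, the lists of parents and the tests were chosen with earlier results of these data known. Named are the 10 members with most reads, the 5 highest and 5 lowest ratios at 24 to 30 nt, the 3 highest and 3 lowest at 31 to 37 nt, the 5 with most antisense reads and leading members of each list, each with its parent. Alternatives changed the counting of sequences, the sequences kept, the windows, the member minimum and the scaling. Added after seeing the data were leaving out the LINE-1-like members, sequences with an abundant neighbour, the trio of Gm45105, Gm47325 and Gm49181, and single members or parents of the histone and ribosomal lists.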

Additional observations from a re-analysis of the deposited data

Results flagged for a closer look

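Sequences outside the 24 to 37 nt window also matched the members and no other transcript, and the report's comparisons do not use them. At 18 to 23 nt there were 26025 reads in Tdrkh-/- and 4112 in Tdrkh+/-, above the 3 reads that a count of 0 allows, a log2 ratio per microRNA read of 2.59 (4.03 for LINE-1-like members and 0.86 for the others). They began with U in 81.7% and 70.4%. At 38 to 40 nt, the upper end of the lengths listed, there were 38848 and 4019 reads, a log2 ratio of 3.20 (4.43 for LINE-1-like members and 2.29 for the others), with U first in 69.1% and 60.4%.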

How the results depend on the processing

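No paired analysis was possible because each genotype has 1 library. Each distinct sequence counted once gave log2 ratios at 24 to 30 nt of -0.71 for all members, 0.87 for LINE-1-like members and -1.48 for the others, and at 31 to 37 nt of 1.47, 2.18 and 1.08 (in the report -0.43, 1.61, -1.42, 2.71, 4.04 and 1.94). In that order they were -0.38, 1.67, -1.36, 2.80, 4.13 and 2.04 without sequences read once, -0.72, 1.53, -1.49, 2.67, 4.09 and 2.04 with sequences of a single pseudogene alone, -1.43, 0.07, -1.46, 1.92, 3.75 and 1.86 without sequences 1 substitution from another transcript, and -1.15, 0.93, -2.10, 3.10, 4.29 and 2.45 with windows of 26 to 28 and 33 to 36 nt. Scaled per read listed, which shifts every log2 ratio by -0.42, they were -0.85, 1.18, -1.85, 2.29, 3.62 and 1.52. All members gave -0.40 and 2.73 at a minimum of 50 reads and -1.42 and 1.94 without LINE-1-like members. Without sequences that have a 10 times more abundant neighbour the values were -0.84, 1.43 and -1.49 at the short size, and 2.41 for all and 3.98 for LINE-1-like members at the long one. Without Gm45105, Gm47325 and Gm49181 all members gave -0.60 and 2.65 and LINE-1-like ones 1.31 and 3.98.

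Members at least 2-fold higher at 31 to 37 nt, 227 of 258 in the report, were 142 of 149 with single-pseudogene sequences and 85 of 101 without near matches; those lower at 24 to 30 nt, 135 of 303, were 83 of 130 without near matches. Per read listed the short window had 167 lower and 41 higher, beside 135 and 59.

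Differences in percentage points, Tdrkh-/- minus Tdrkh+/-, were -11.6 for the antisense share, -5.58 for 5′ U, 28 for 10A, 15.5 for the 10 nt overlap and -2.46 for the overlap with parents. In that order they were -4.90, -0.994, 10.3, 4.24 and -0.754 with each sequence counted once, -15.0, -1.57, 2.02, 0.869 and 4.72 without near matches, and -16.2, -9.13, 31.7, 13.4 and -2.41 with the narrower windows. Single-pseudogene sequences gave -9.60 for antisense, -7.57 for 5′ U, 9.74 for the overlap and 2.65 for that with parents, the last, like the 4.72, of opposite sign to the report. Leaving out sequences read once gave -6.30 for 5′ U, 15.2 for the overlap and -0.653 for that with parents. A minimum of 50 reads gave -12.0 for antisense and overlaps of 15.5 and -1.98. Without abundant neighbours 5′ U differed by -2.08, 10A by 19.6 and the overlaps by 16.1 and -2.48. Without LINE-1-like members the values were -12.4 for antisense, -1.44 for 5′ U, 3.11 for 10A and 6.62 for the overlap, and without the trio -9.09, -6.80 and 15.6 for antisense, 5′ U and the overlap. Without the trio the antisense share of ORF2-like reads relative to LINE-1 differed by -3.96 in place of 4.28. The cause of these shifts was not tested. All 974 members rest on 1 library per genotype, and at the median of 67 reads a member's ratio has a wide counting interval.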
